A study of Mus musculus with 12 samples.

Results

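Neural cell adhesion molecules hold nerve cells to each other and to their surroundings, and 9 of their genes were followed here in 7 mouse lung tumors and 5 normal mouse lungs: Ncam1, Ncam2, L1cam, Chl1, Nrcam, Nrxn2, Nrxn3, Nlgn1 and Cadm1. The genes were taken by symbol, and all 9 were found among the 30399 genes of the expression table. Values are read counts per gene after division by a size factor for each library, called normalized counts below. The tumors come from a study of mouse lung cancer models made with CRISPR/Cas9 without a virus. The labels give tissue alone, so strain, genotype, age, treatment and the genes disrupted in each tumor are not stated for any sample. The titles carry numbers, and tumors 3 and 4 have 159 in common, while tumors 5, 6 and 7 have 201. Titles also name the trachea for tumors 1 and 7, the lung for tumors 3 to 6, and no site for tumor 2.

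The NCAM proteins carry immunoglobulin domains and bind copies of themselves on a neighbouring cell. The L1 family, to which L1cam, Chl1 and Nrcam belong, has a similar build and anchors the membrane to the cytoskeleton through ankyrins. Neurexins sit on the presynaptic side of a synapse and bind neuroligins on the postsynaptic side, while Cadm1 bridges cells in nervous and epithelial tissue alike. In the lung, pulmonary neuroendocrine cells carry NCAM1, and the protein is a routine stain for small cell lung carcinoma.

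Gene counts summed to 11126432 to 17032234 reads in normal lung libraries and 13093843 to 24217633 in tumor libraries. A floor of 3 reads stood at 3.23 to 4.85 normalized counts in the lungs and 1.90 to 3.57 in the tumors. The genes Ddx3y, Uty, Kdm5d and Eif2s3y lie on the Y chromosome. Their mean log2 value was 9.18 to 9.43 in normal lungs 1, 2, 4 and 5 and 9.14 in tumor 1. Normal lung 3 and the other tumors were at 0 to 1.48, so that this level largely followed the tissue. The labels do not state sex, so sex and tissue cannot be fully told apart. Where this level is a covariate below, only normal lung 3 and tumor 1 separate it from tissue. As to tissue identity, all 7 alveolar type 2 markers examined were lower in tumor, their summed level being 216455 to 297427 normalized counts in lungs and 739 to 3313 in tumors. All 12 neuroendocrine markers were higher in tumor, with sums of 259 to 348 and 40463 to 150751. In such bulk samples, fewer cells of a type and less RNA per cell cannot be told apart.

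Of the 9 genes, 7 rose in tumor, Cadm1 fell, and Ncam2 did not pass the test. Calls required a limma adjusted p below 0.05 and a log2 difference of 1 or more in either direction. By that rule 48.5% of the 23674 genes tested were called, 24% higher in tumor and 24.5% lower. In 6 of the 9, all but Ncam2, Chl1 and Cadm1, every tumor lay above every normal lung, which held for 20.1% of all genes tested. The median log2 fold change was 2.98 over the 9 genes and 0.04 over all genes tested. Chl1 was called although its lowest tumor lay within the normal range, and Cadm1 although its highest tumor did.

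**Figure D1:**
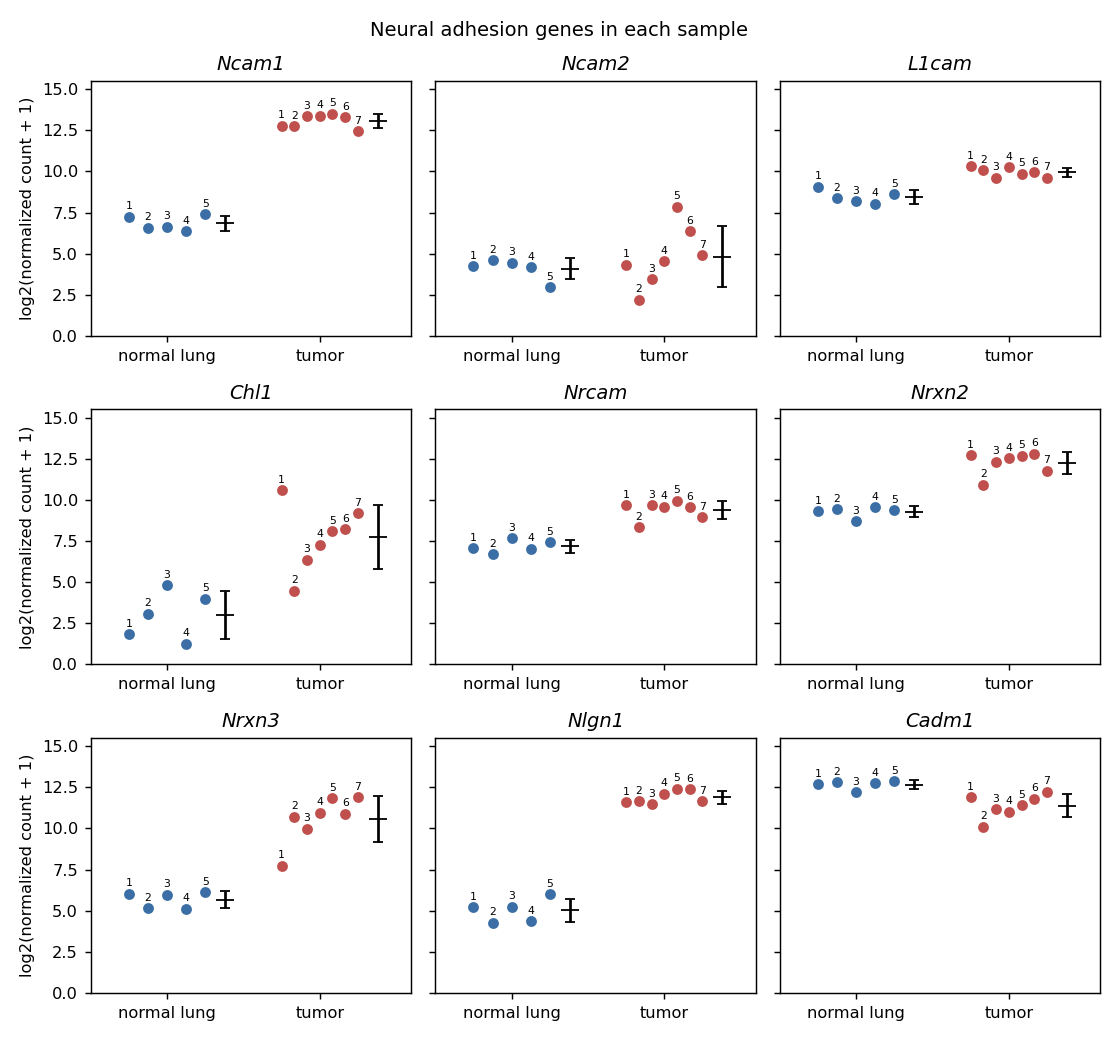
Each panel shows 1 gene, with the log2 of the normalized count plus 1 on the vertical axis and 1 numbered point per sample (blue, 5 normal lungs; red, 7 tumors); the black mark and bar give the mean and SD. Tumor points of Ncam1 and Nlgn1 lie far above normal lung, those of Ncam2 and Chl1 are widely spread, and those of Cadm1 lie lower.

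RefSeq promoter sequences (GRCm38.p6) were matched by symbol for 6 of the 9 genes. Ncam1, Nrxn2 and Cadm1 had no entry. In the 250 bases before each of 10 annotated starts, 2 of which overlap, 5 motifs were searched on both strands. The GC box GGGCGG was found in 4 of the 10 windows (32.7% of all 32841 promoters of that length), the half-site CAGCACC of the REST repressor in 2 (5.73%), and the NFI half-site TTGGCA in 1 (12.3%). The E-box CAGCTG (13% of all promoters) and the cAMP response element TGACGTCA (1.55%) were in none. Below are the windows of 3 genes that rose and of Ncam2, which did not pass the test, all without an annotated exon inside, shown to set their base composition side by side. Capitals mark motif matches, in which no motifs overlap, and GGTGCTG is CAGCACC on the opposite strand.
Nlgn1, chr3:26153987-26154236, minus strand: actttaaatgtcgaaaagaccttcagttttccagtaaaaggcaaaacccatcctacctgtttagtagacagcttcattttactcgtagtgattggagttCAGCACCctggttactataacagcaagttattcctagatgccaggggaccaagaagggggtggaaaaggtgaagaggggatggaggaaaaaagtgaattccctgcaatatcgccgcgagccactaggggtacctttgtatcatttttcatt
Nrcam, chr12:44328635-44328884, plus strand: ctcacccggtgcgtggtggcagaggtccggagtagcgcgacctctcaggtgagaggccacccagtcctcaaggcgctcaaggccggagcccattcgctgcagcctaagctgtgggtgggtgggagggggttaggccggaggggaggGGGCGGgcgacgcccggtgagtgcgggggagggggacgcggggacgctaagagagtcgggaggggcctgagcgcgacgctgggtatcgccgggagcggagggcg
L1cam, chrX:73880835-73881084, minus strand: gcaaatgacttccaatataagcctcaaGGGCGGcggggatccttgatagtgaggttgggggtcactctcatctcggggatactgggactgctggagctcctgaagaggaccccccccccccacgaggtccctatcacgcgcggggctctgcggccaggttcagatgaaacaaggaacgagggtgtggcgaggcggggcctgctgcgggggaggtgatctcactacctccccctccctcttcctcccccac
Ncam2, chr16:81200447-81200696, plus strand: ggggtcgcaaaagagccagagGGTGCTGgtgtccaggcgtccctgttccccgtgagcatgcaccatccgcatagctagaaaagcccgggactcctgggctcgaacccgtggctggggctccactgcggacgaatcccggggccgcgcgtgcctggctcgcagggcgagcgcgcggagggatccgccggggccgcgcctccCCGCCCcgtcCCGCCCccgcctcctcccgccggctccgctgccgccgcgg

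The Nlgn1 window lies at the downstream one of 2 starts and that of L1cam at the upstream one. Nlgn1 had a GC content of 43.6% with 5 CG dinucleotides and 1 REST half-site, whose first base lies at -151 from the start. The Ncam2 window was the richest, at 75.2% with 32 CG dinucleotides, and held 1 REST half-site at -229 and 2 GC boxes at -50 and -40. Nrcam had 72.4%, 25 CG dinucleotides and 1 GC box at -104, and L1cam 63.2%, 12 CG dinucleotides and 1 GC box at -223. Nrxn3 also rose, and its 3 windows, likewise without an annotated exon inside, are not shown. They had a GC content of 45.6%, 46.8% and 60%, with 2, 5 and 12 CG dinucleotides. Over all promoters the medians were 52.4% and 6. The REST half-site was thus found both in Nlgn1, the gene with the largest change of the 9, and in Ncam2. In Nlgn1 it was at the downstream start only, and the window of the upstream start had no match.

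Ncam1 (ENSMUSG00000039542), the founding member of the NCAM pair, was low in every normal lung, with normalized counts of 151, 94.6, 98.5, 81.8 and 169 in lungs 1 to 5. Tumors 1 to 7 had 7011, 6828, 10592, 10730.1, 11609, 10172 and 5615. The lowest tumor, tumor 7, was far above the highest normal lung. Tumor exceeded normal lung by a log2 fold change of 6.23 (SE 0.24, n = 5 and 7, limma adjusted p = 4.14e-10), and the SD of the log2 values was 0.45 in normal lung and 0.41 in tumors.

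Ncam2 (ENSMUSG00000022762), its paralog, best known from olfactory neurons, stayed low in most samples. Values were 18.1, 23.7, 20.996, 16.9 and 6.90 in normal lungs 1 to 5. Tumors 1 to 7 had 19.0, 3.57, 9.91, 22.5, 229.7, 80.9 and 29.5. Tumors 5, 6 and 7, which share the number 201, were above every normal lung, while tumor 2 was below all 5 lungs and tumor 3 below 4 of them. The log2 fold change of 0.71 (SE 0.79, limma adjusted p = 0.452) did not pass the threshold. It fell to 0.20 without tumor 5 and to 0.13 when tumors of one number were averaged, and rose to 1.15 without tumor 2. On recovered reads of 11 samples it was 1.95 in edgeR (adjusted p = 0.0616) and 1.92 in DESeq2 (adjusted p = 0.0295), the latter past the threshold. Of all genes tested, 25.2% were called higher by edgeR and 24.1% by DESeq2.

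The ratio of Ncam1 to Ncam2 was higher in tumor by 5.52 log2 units, with 1.96 to 4.43 in normal lungs and 5.65 to 10.54 in tumors. Ratios within families were compared for 5 pairs, chosen after the values were seen, by an exact two-sided permutation test with p-values adjusted over the 5. The Ncam1 to Ncam2 ratio had an exact permutation p of 0.00253, the smallest that 5 against 7 samples can give (adjusted 0.0126). With tumors averaged by title number the difference was 6.02. Its exact permutation p was then 0.0159, which is as low as 5 against 4 values allow, and adjustment over the 5 pairs took it to 0.0794.

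L1cam (ENSMUSG00000031391), a growth cone protein whose gene lies on the X chromosome, was at 539, 329, 292, 261 and 391 normalized counts in normal lungs 1 to 5. In tumors it ran from 784 (tumor 3) over a median of 991 to 1266 (tumor 1). The groups did not overlap, and L1cam had the smallest spread of the 9 genes among tumors, with an SD of 0.28 log2 units. It rose by 1.498 log2 units (SE 0.20, limma adjusted p = 2.45e-05), and by 1.75 with Y-linked expression as a covariate. Exons of L1cam overlap exons of Arhgap4 on the same strand, which makes both counts uncertain. Arhgap4, a gene of blood cells, was at 243 to 467 in normal lungs and 65.2 to 369 in tumors.

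Nrcam (ENSMUSG00000020598), which in nerve gathers sodium channels at the nodes of Ranvier, was at 134, 102, 205, 131 and 170 normalized counts in normal lungs 1 to 5. In tumors it ran from 320 (tumor 2) over a median of 769 to 994 (tumor 5). Every tumor was above every normal lung. The rise amounted to 2.21 log2 units (SE 0.28, limma adjusted p = 1.39e-05).

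Chl1 (ENSMUSG00000030077), the close homolog of L1, was near the floor in normal lung, at 2.58, 7.53, 27.5, 1.41 and 14.9 normalized counts in lungs 1 to 5, lungs 1 and 4 resting on 2 reads and 1 read. Tumors 1 to 7 had 1542, 21.4, 81.3, 155, 273, 297 and 583. The lowest, tumor 2, lay below normal lung 3, and the 2 highest were the tumors titled for the trachea. On average it rose by 4.74 log2 units (SE 0.92, limma adjusted p = 5.75e-04), and by 3.89 without the trachea-titled tumors. Among the 9 genes Chl1 had the largest spread across tumors, with an SD of 1.97 log2 units against 1.47 in normal lung.

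Within the L1 family, the Chl1 to L1cam ratio was 3.25 log2 units higher in tumor (exact permutation p = 0.0177, adjusted 0.0337), and the Chl1 to Nrcam ratio 2.53 higher (exact permutation p = 0.0202, adjusted 0.0337). Both lost the threshold when normal lung 1, 2, 4 or 5 or tumor 4, 5, 6 or 7 was left out, with adjusted p up to 0.0808, and so they did without the tumors titled for the trachea (2.39 and 1.65, both adjusted 0.0794, exact permutation). Averaged by title number, they were 3.02 and 2.50 and did not pass either (both adjusted 0.159, exact permutation, 5 against 4 values). Over all 16 alternatives run, each of these 2 ratios kept its call in 5. The Nrcam to L1cam ratio was 0.71 higher and did not pass (exact permutation p and adjusted p of 0.0758). It did pass without normal lung 3 (0.90, adjusted 0.0485) or without tumor 2 (0.91, adjusted 0.0216).

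**Figure D2:**
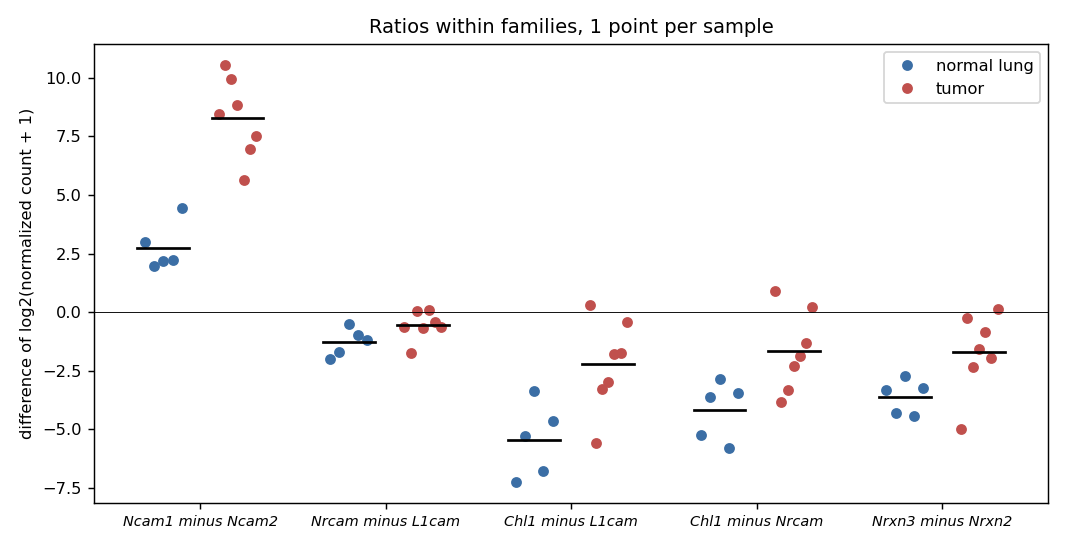
The vertical axis is the difference of log2(normalized count + 1) between 2 genes of a family in the same sample, for 5 pairs; points are samples (blue, normal lung; red, tumor) and lines are group means. The Ncam1 to Ncam2 ratio separates the groups, at 1.96 to 4.43 against 5.65 to 10.54, and the other ratios overlap.

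Nrxn2 (ENSMUSG00000033768), a neurexin, was at 645, 688, 415, 758 and 656 normalized counts in normal lungs 1 to 5. In tumors it ran from 1957 (tumor 2) over a median of 5923 to 7217 (tumor 6). The groups did not overlap. Nrxn2 rose by 2.98 log2 units (SE 0.30, limma adjusted p = 1.86e-06).

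Nrxn3 (ENSMUSG00000066392), another neurexin, was at 64.5, 34.4, 61.4, 33.9 and 69.0 normalized counts in normal lungs 1 to 5. Tumors 1 to 7 had 213, 1667, 1015, 1976, 3703, 1890.2 and 3846. Tumor 1 stood lowest and was still above every normal lung, and the tumors numbered 201 averaged 3146 against 1495 for those numbered 159. Nrxn3 rose by 4.90 log2 units (SE 0.59, limma adjusted p = 9.33e-06), and by 3.70 with Y-linked expression as a covariate. Tumor 1 was also the only tumor with high Y-linked expression, so the estimate with that covariate leans on it. The Nrxn3 to Nrxn2 ratio was 1.92 log2 units higher in tumor and did not pass after adjustment (exact permutation p = 0.0429, adjusted 0.0537). In tumor 1 that ratio was -4.97, below every normal lung, and without tumor 1 the difference was 2.47 and passed (exact permutation, adjusted p = 0.0108), as it did without normal lung 3 (2.14, adjusted 0.0485) and without the trachea-titled tumors (2.21, adjusted 0.0198).

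Nlgn1 (ENSMUSG00000063887), a neuroligin of excitatory synapses and a binding partner of the neurexins, showed the largest difference of the 9 genes. Normal lungs 1 to 5 had 36.1, 18.3, 37.1, 19.7 and 63.2 normalized counts, against 3117, 3226, 2838, 4399.6, 5425, 5305 and 3225 in tumors 1 to 7. All tumors were far above all normal lungs and lay close together. This gave a log2 fold change of 6.87 (SE 0.29, limma adjusted p = 9.97e-10). The antisense gene A830092H15Rik overlaps exons of Nlgn1 and was listed at 0 in all 5 normal lungs and at no more than 2.97 in tumors.

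Cadm1 (ENSMUSG00000032076), also known as a tumor suppressor of lung cancer, was the member that fell. Normal lungs 1 to 5 had 6629, 7179.9, 4699.9, 6823 and 7456 normalized counts, against 3804, 1103, 2304, 2066, 2725, 3589 and 4801 in tumors 1 to 7. Only tumor 7 reached the normal range, just above normal lung 3. The difference was -1.28 log2 units (SE 0.30, limma adjusted p = 0.00222), -1.03 in edgeR (adjusted p = 0.0146; 20.6% of all genes were called lower there) and -1.08 when all columns were scaled to the same total, which moved the median of all genes from 0.04 to 0.23. With Y-linked expression as a covariate the change was -0.93 and the call was lost (limma adjusted p = 0.0588), where 21.6% of all genes were called lower. Normal lung 3, the lowest of the lungs, was also the normal lung with Y-linked genes at 0. Tumor 7 had the highest summed level of 5 type 1 dendritic cell markers, 16037 normalized counts against 396 to 6302 in the other tumors and 2281 to 3580 in normal lung, and none of the 5 was at 0 there. It also had the highest sum of 6 cardiac muscle markers, 37925 against 453 to 2727 in the other tumors and 308 to 4028 in normal lung. The sums of 7 fibroblast and smooth muscle markers (28660) and of 7 T and NK cell markers (1850) were likewise highest in tumor 7 of all samples. Its sum of 12 neuroendocrine markers, 40463, was the lowest of the tumors. Alveolar type 2 markers were lower in all tumors by the sums given above, with Sftpa1 and Cxcl15 at 0 in at least 1 tumor, and the 6 endothelial markers summed to 47429 to 61266 in the lungs, against 2585 to 7525 in tumors. The part of these cells in the Cadm1 values, or in the low Ncam1 of tumor 7, was not tested.

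**Figure D3:**
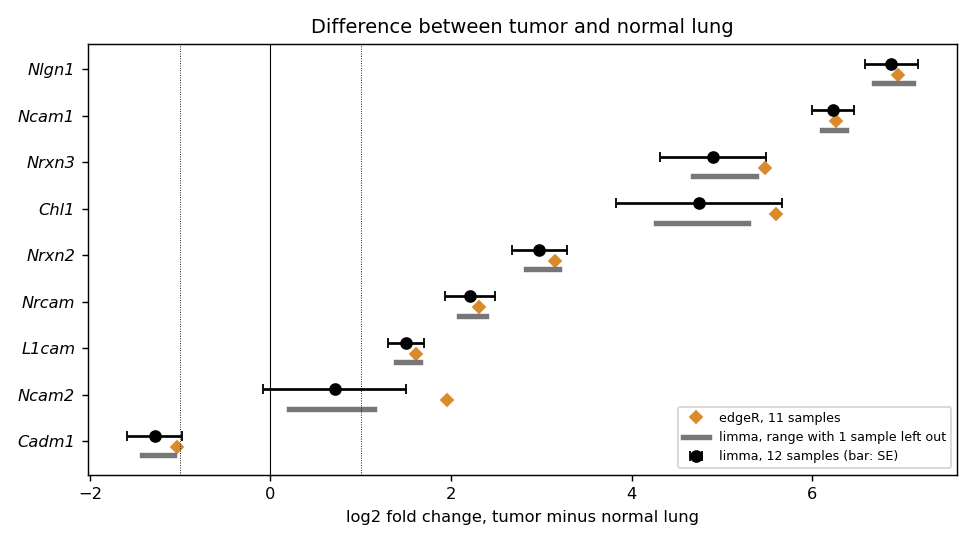
The horizontal axis is the log2 fold change of tumor against normal lung for each of the 9 genes: black points and bars are limma estimates with their SE, orange diamonds edgeR estimates on 11 samples, and grey bars the range of limma estimates when 1 sample is left out; dotted lines mark a change of 1 in either direction. Nlgn1 at 6.87 and Ncam1 at 6.23 are farthest to the right, and Cadm1 at -1.28 is on the left.

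The 3 paralogs of Cadm1, picked out after their values were seen, went the other way. Cadm4 rose from 274 to 384 normalized counts in normal lung to 2238 to 7688 in tumors (log2 fold change 3.87, SE 0.27, limma adjusted p = 6.35e-08). Cadm2 rose from 107 to 236 to 2004 to 4438 (3.89, SE 0.24, adjusted p = 1.83e-08 in limma). Cadm3 rose as well, by 2.55 (SE 0.54, limma adjusted p = 0.00113), with groups that overlapped.

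Levels of different genes can be set side by side only per length. Per kb of annotated exon, Cadm1 led in normal lung at 628 ± 104 normalized counts per kb (SD, n = 5), and its range did not overlap that of the next gene, L1cam, at 49.3 ± 14.95. Nrxn2 followed at 45.8 ± 9.35 and overlapped L1cam. Below it, without overlap, were Ncam1 at 13.7 ± 4.44 and Nrcam at 11.1 ± 2.98, which overlapped each other. Nrxn3 (4.17 ± 1.36), Nlgn1 (2.60 ± 1.35), Ncam2 (1.53 ± 0.56) and Chl1 (0.88 ± 0.87) closed the order, each overlapping its neighbour. In tumors the order was led by Ncam1 at 1031 ± 274 per kb (SD, n = 7), above Nrxn2 (384 ± 139) without overlap. Nrxn2, Nlgn1 (293 ± 81.6), Cadm1 (279 ± 119), Nrxn3 (162 ± 105) and L1cam (137 ± 26.2) each overlapped the next. Nrcam (53.1 ± 16.9) lay below L1cam without overlap, and Chl1 (34.3 ± 42.9) and Ncam2 (4.98 ± 7.10) came last.

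In the summed per-kb level of the 9 genes, Cadm1 made up 80.2%, 85.1%, 80.6%, 85.0% and 83.1% in normal lungs 1 to 5. In tumors 1 to 7 its share was 16.1%, 6.68%, 9.67%, 7.65%, 8.63%, 12.2% and 21.9%. Ncam1 made up 1.23% to 2.27% of that sum in normal lung and 30.8% to 53.6% in tumors. Nrxn2, Nlgn1 and Nrxn3 had mean shares of 6.02%, 0.35% and 0.57% in normal lung, and of 15.7%, 12.3% and 6.90% in tumors. The sum itself was 558 to 859 normalized counts per kb in normal lung and 1581 to 3023 in tumors.

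**Figure D4:**
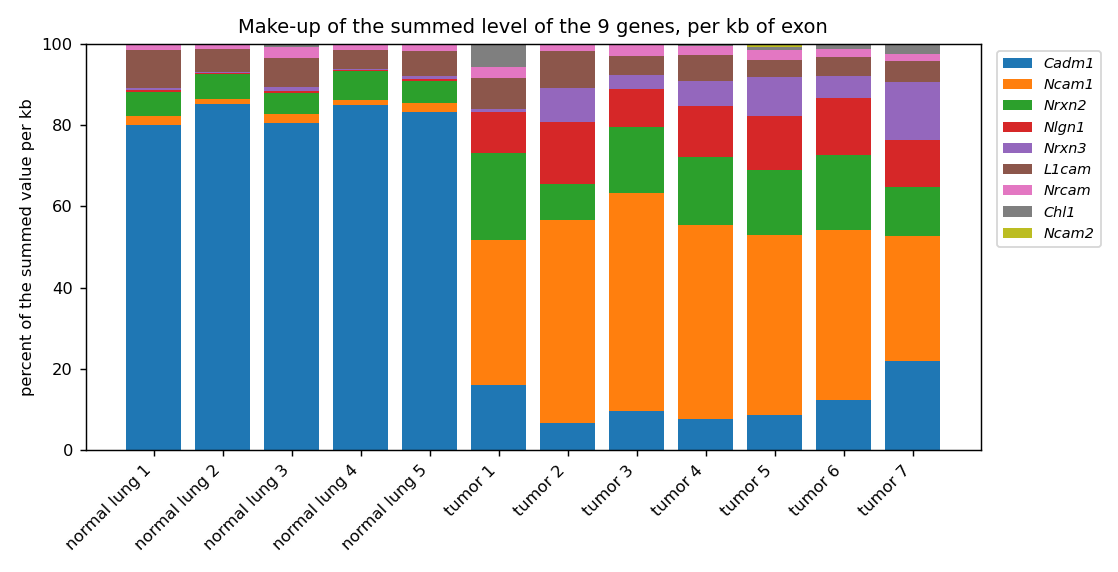
Each bar is 1 sample, and its colours give the percentage that each of the 9 genes contributes to their summed normalized count per kb of exon. Cadm1 fills 80.2% to 85.1% of the bar in normal lungs and at most 21.9% in tumors, where Ncam1 is the largest part at 30.8% to 53.6%.

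Genes that are related to the 9 or work with them were described from 4 lists, with 69 genes tested. Of these, 31 were called higher and 13 lower in tumor, against 24% and 24.5% of all genes tested. Among 13 partners and ligands of neurexins, 9 rose, 2 fell and 2 were not called, with a median log2 fold change of 3.80. Nlgn3, a neuroligin found at both kinds of synapse, rose by 5.35 log2 units (SE 0.38, limma adjusted p = 7.11e-08), and the neurexin ligands Nxph1 and Igsf21 by 4.76 each (SE 0.63 and 0.91). Igsf21 was near the floor in normal lung, at 0 to 7.74 normalized counts. Its log2 fold change ran from 3.71 at a pseudocount of 5 to 6.15 in edgeR. Nlgn2, the neuroligin of inhibitory synapses, was picked after its values were seen and rose by 1.76 (SE 0.20, limma adjusted p = 5.65e-06). The 2 that fell were Dag1, the dystroglycan gene that also anchors cells to laminin (-1.90, SE 0.19), and Nxph3 (-2.91, SE 0.49).

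Of 20 related immunoglobulin adhesion molecules, 11 rose, 4 fell and 5 were not called, with a median of 2.30. Nfasc, the remaining L1 family gene and a node of Ranvier protein, rose by 8.67 (SE 0.67, limma adjusted p = 1.40e-07), from at most 45.2 normalized counts in normal lung to at least 1862 in tumors. The contactin Cntn2 went from at most 6.46 normalized counts in normal lung, with a median of 0, to between 65.5 and 427 in tumors (limma adjusted p = 3.59e-07). Its fitted log2 fold change depended on the pseudocount, from 5.31 at 5 to 9.14 at 0.1. Dscam, which guides neurite self-avoidance, rose by 3.90 (SE 0.43). Cntn3 was listed at 0 in all 5 normal lungs and at 105 to 2596 in tumors. The tumor mean of 702 was about 145-fold above the highest floor of a normal lung (3 reads, 4.85 normalized counts). The 4 that fell were Nectin4 (-3.56, SE 0.56), Nectin3 (-2.61, SE 0.24), Mcam (-2.27, SE 0.26) and Alcam (-2.18, SE 0.64).

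Cytoplasmic scaffolds were split. Of 22 tested, 10 rose, 3 fell and 9 were not called, with a median of 0.85. The ankyrins, which bind the tails of L1 family proteins, did not move together. Ank1 rose by 4.65 (SE 0.40, limma adjusted p = 3.95e-07) and Ank2 by 4.35 (SE 0.32, limma adjusted p = 9.59e-08), while Ank3 fell by 1.12 (SE 0.31, limma adjusted p = 0.00670). In limma and the count tools, the call of Ank3 was lost under quantile normalization (-0.95), equal totals (-0.92), edgeR (-0.77), DESeq2 (-0.83), the Y-linked covariate (adjusted p = 0.0653) and without tumor 3 (-0.88). Apba2 rose from 52.9 to 90.3 normalized counts in the lungs to 1084 to 3202 in tumors (limma adjusted p = 1.64e-08). Lin7a went from at most 2.30 normalized counts in normal lung to between 66.7 and 1059 in tumors. Its tumor mean of 627 was about 129-fold above the highest floor of a normal lung (3 reads, 4.85 normalized counts). Cask, the kinase-like scaffold to which the tails of neurexins and Cadm1 bind, changed by 0.92 (SE 0.22, limma adjusted p = 0.00228), short of the fold limit, which it passed in edgeR (1.14), DESeq2 (1.07), under equal totals (1.13) and without tumor 4 (1.009). The other 2 that fell were Epb41l2 (-1.53, SE 0.30) and Epb41l3 (-2.47, SE 0.89), the latter not called in edgeR (-0.81) or DESeq2 (-0.88), nor without normal lung 4 or 5 or tumor 1, 4 or 5 (-2.46 to -2.21).

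Among 14 modifying enzymes and co-receptors, 1 rose, 4 fell and 9 were not called, with a median of -0.30. The enzymes that put polysialic acid on NCAM went in opposite directions. St8sia2 rose by 1.03 (SE 0.23, limma adjusted p = 0.00140), from 264 to 440 normalized counts in normal lung to 487 to 1093 in tumors. It slipped under the fold limit, to between 0.92 and 0.98, without normal lung 2 or 4 or tumor 2, 3 or 5, and to 0.82 with the Y-linked covariate. St8sia4 fell by 1.87 (SE 0.31, limma adjusted p = 1.70e-04), from 883 to 1236 to 178 to 589. Gfra1, a co-receptor through which NCAM can bind GDNF, fell by 2.56 (SE 0.25). Nrp1, the neuropilin that pairs with L1cam and is also abundant in endothelium, fell by 3.44 (SE 0.41). Gfra2 fell by 2.14 (limma adjusted p = 0.0298), a call lost without normal lung 1, 3 or 5 (adjusted p up to 0.0582) and with the Y-linked covariate (-1.82).

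**Figure D5:**
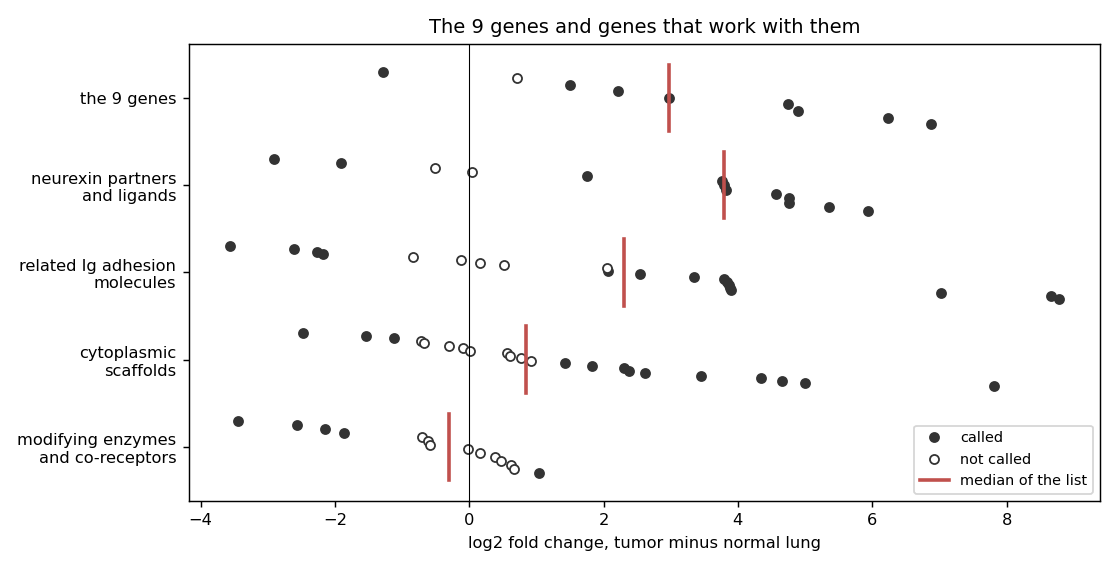
The horizontal axis is the log2 fold change of tumor against normal lung by limma. Each point is a gene, filled where called and open where not. Red bars are medians of the 9 genes and of the 4 lists of related or partner genes. Medians run from 3.80 for neurexin partners and ligands to -0.30 for modifying enzymes and co-receptors.

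Markers of nerve tissue were measured beside these genes. Of 11 Schwann cell markers 2 rose (Gfra3 and Ngfr) and 4 fell, and their summed level was 18560 to 27351 normalized counts in normal lung and 3094 to 7495 in tumors. Sox10, which defines the lineage, was at 0 to 33.9 in normal lungs and 4.96 to 46.1 in tumors. Of 7 peripheral neuron markers 5 were tested and 4 rose (Phox2a, Th, Chrna3 and Prph), and the summed level was 8.08 to 31.0 in the lungs, against 199 to 4264 in tumors. The autonomic neuron factor Hand2 reached no more than 2.58 in normal lung and 6.40 in tumors, and Dbh, which makes noradrenaline, no more than 7.04 in tumors. The part of nerve tissue in the values of the 9 genes was not tested.

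For each of the 9 genes, the tested gene of most similar pattern was sought among 16474 others with a mean log2 value of at least 4, by the root mean square (RMS) difference of centred log2 values over the 12 samples. The smallest difference was that of Cdk14 from Cadm1 (RMS 0.16 log2 units, where Cadm1 itself varied by 0.82 about its mean). As the RMS is not scaled to a gene's own variation, it does not rank the matches across the 9 genes. Cdk14 fell by 1.19 (SE 0.25, limma adjusted p = 9.28e-04). As Cdk14 was picked for its likeness to Cadm1 in the same 12 samples, its fall adds no separate evidence. L1cam was closest to Srrt (0.18), Nrcam to Efna2 (0.21) and Nrxn2 to Grip1 (0.29). L1cam, Nrcam and Nrxn2 varied by 0.80, 1.18 and 1.56 about their means. Nlgn1 was closest to Rgs7 (0.33) and Ncam1 to Iglon5 (0.34). Ncam1 and Nlgn1 varied by 3.10 and 3.42 about their means, so these differences are small beside the contrast between tissues. Pde10a was at 0.58 from Nrxn3, Esrrg at 0.65 from Ncam2 and Tmem130 at 1.001 from Chl1, where these 3 genes varied by 2.63, 1.41 and 2.85 about their means.

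Among the tumors themselves, tumor 2 was lowest for Ncam2, Chl1, Nrcam, Nrxn2 and Cadm1, and tumor 7 was lowest for Ncam1. Tumor 5 was highest for Ncam1, Ncam2, Nrcam and Nlgn1. Tumor 1 combined the highest Chl1 and L1cam with the lowest Nrxn3. The 2 tumors numbered 159 were close in Ncam1 (10592 and 10730.1) and Nrcam (816 and 769), and less so in Nrxn3 (1015 and 1976). The 3 numbered 201 were close in Ncam1 only for tumors 5 and 6, with tumor 7 at 5615. No test among tumors was made, since the labels do not say whether a shared number is a shared animal.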

How the data were processed

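Poly-A RNA from 5 normal lungs and 7 tumors was sequenced (Illumina NovaSeq, paired), per the labels' protocols. The deposited values are a signal per Ensembl gene, read counts divided by a size factor per library, as worked out from the values. Per the submitters' processing notes, featureCounts, DESeq2 and the build GRCm39 were used, with versions, annotation and use of strand not given in the sources used here. Of the values, 100% were whole multiples of a step for their column (tolerance 0.001 reads), and whole reads of 11 columns entered the count tests. Tumor 3, whose step size did not pass a second check for whole reads, was kept out of them. On these reads edgeR called 4618 genes higher and 3767 lower in tumor of 18308 tested.

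Symbols and exon lengths came from GENCODE M21, which is on GRCm38, so the only coordinates given are those of RefSeq promoter windows, on GRCm38.p6 (29982 of 30399 identifiers matched). The test used log2(value + 1) of genes with a mean of 1 or more in limma 3.58.1 (lmFit, eBayes with trend, R 4.3.3) and Benjamini-Hochberg adjustment over all 23674. This scale understates the change of low genes. edgeR 4.0.16 (TMM, quasi-likelihood) and DESeq2 1.42.0 were alternatives, beside pseudocounts of 0.1 and 5, other filters and scalings, averaging or correlating tumors of one title number, and leaving out samples. The plain limma and edgeR fits were also run on simulated data with independent samples. The other fits and the permutation tests were not. Python 3.11.15 and scipy 1.17.1 gave the permutation tests.

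The 9 genes and all lists were chosen with earlier results of these data known. Named genes are the 9, up to 4 called genes per list with the largest changes whose log2 values average 4 or more, and the closest match of each of the 9. All other genes named were chosen after their values were seen. The labels name no animals, so p-values measure the spread between these samples, which may be technical. No 2 libraries of a group matched within sampling noise (31 pairs, smallest chi-square per degree of freedom 19.8). Floors cover counting error only.

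Some related genes are not reported here.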

Additional observations from a re-analysis of the deposited data

Results flagged for a closer look

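For each of the 9 genes, the lowest and highest sample within each tissue was examined, 18 cases in all, of which chance alone would mark about 1 in 20 (0.9 here) and 3 were marked. In each the lowest normal lung stood apart from the others by the 95% limit of Dixon's ratio. Cadm1 had a log2 value of 12.20 in normal lung 3, with the next lowest lung at 12.69, and without that lung the log2 fold change was -1.40. Nrxn2 had 8.70 in normal lung 3, with the next at 9.34, and without it the change was 2.83. Ncam2 had 2.98 in normal lung 5, on 6 reads, with the next at 4.16, and without it the change was 0.43. No tumor was marked for any of the 9 genes.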

How the results depend on the processing

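Across 24 alternatives, 7 of the 9 genes were called higher in 23 and 8 in DESeq2, which added Ncam2. The share of all genes tested that was called higher ran from 18.8% (no filter on the mean) to 27.4% (equal totals). For genes called lower it ran from 19.1% (no filter on the mean) to 26.5% (without trachea-titled tumors). Cadm1 was called lower in all but the fit with the Y-linked covariate, chosen after seeing the data, where 0 of the 9 genes were called lower. The log2 fold changes of Ncam1, L1cam, Chl1, Nrcam, Nrxn2, Nrxn3 and Nlgn1 kept their direction and call in all 24. Counts over the 69 related genes ran from 29 to 33 higher and from 11 to 13 lower. In edgeR some of the 69, such as Cbln4 and Lrrtm4, were not tested. The count of 29 was reached both there and without normal lung 2. Esrrg, the closest match of Ncam2, reversed to -0.10 when tumors of one title number were averaged. Its closest counterpart for Cadm1, Cdk14, was short of the fold limit under equal totals (-0.98), in edgeR (-0.97) and with the Y-linked covariate (-0.96). Correlating tumors of one title number (consensus correlation 0.30) changed no call among the 9 genes. No paired analysis was possible because the labels give no replicate numbers that normal lungs and tumors share. Depth limits Chl1 and Ncam2, which rest on 1 to 22 reads per normal lung.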
